A study of Mus musculus with 6 samples.

Results

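Long noncoding RNAs (lncRNAs) that were well expressed in cultured neonatal mouse cardiomyocytes were compared between β-sitosterol (β-SITO, a plant sterol) and vehicle. The genes were all rows of the count table annotated as lncRNA on chromosomes 1 to 19 with a mean of at least 100 raw counts over the 6 libraries. There were 106 such genes among 57010 genes in the table, 11599 of them lncRNAs and 10811 of those autosomal. The cells were primary NMCMs of neonatal C57BL/6 mice, separated from other heart cells by differential adhesion, and every culture was exposed to hypoxia (HO). The HO + Vehicle group held libraries 1 to 3 and the HO + β-SITO group libraries 4 to 6. The dose and the time under hypoxia are not stated for these libraries, and the names of the β-SITO libraries carry a letter C whose meaning is not given. Nothing says that the 3 libraries of a group came from separate cultures, so p-values measure the spread between these libraries, which may be technical. The genes were thus chosen by their raw count level over both groups, and that level is given as a description. A total of 27 of the 106 genes reached a mean of 100 counts through 1 group only (8 through vehicle, 19 through β-SITO), and 13 of these 27 were called, so counts over the 106 carry that choice and support nothing by themselves.

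LncRNAs are transcripts without a long conserved reading frame. Some act in the nucleus as scaffolds of nuclear bodies, some are transcribed next to protein-coding genes, and some are mainly carriers of small RNAs. Host genes of the SNHG family carry in their introns the small nucleolar RNAs (snoRNAs) that guide ribosomal RNA modification, and other lncRNAs are primary transcripts of microRNAs. A further class lies in imprinted clusters, where only the maternal or the paternal copy is expressed. In the heart, lncRNAs of these classes are known from fetal growth, vascular cells and injury.

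The libraries held 16694734 to 17082129 counts in the vehicle group and 16962152 to 18460522 in the β-SITO group. All 8 cardiomyocyte markers were detected, with a summed level of 4165 to 4971 CPM (counts per 1e6, scaled by the trimmed mean of M-values, TMM) in vehicle and 4211 to 7074 in β-SITO. The 6 fibroblast markers summed to 19400 to 20460 CPM in vehicle and 25670 to 26020 in β-SITO, which was higher than the cardiomyocyte sum in every library. None of the 6 was called, and under 2-fold Col1a1 (log2 fold change 0.42), Col1a2 (0.59) and Lum (0.97) passed the adjusted p upwards and Dcn (-0.52) and Postn (-0.22) downwards. The 5 endothelial markers were all higher with β-SITO (169.5 to 195.2 against 682.6 to 718.5 CPM summed). Of 6 macrophage markers 3 were higher (420.8 to 431.9 against 819.6 to 976.2 CPM), and of 5 smooth muscle and pericyte markers 2 were higher (574.4 to 625.2 against 1103 to 1303 CPM). Red blood cell markers were at or near 0. The part of cell composition in the values below was not tested, and fewer cells of a type and less RNA per cell cannot be told apart in bulk RNA.

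All 106 lncRNAs passed the filter on low counts. With β-SITO 15 were higher and 14 lower, at an adjusted p under 0.05 (edgeR's quasi-likelihood test, Benjamini-Hochberg over 14799 genes) and more than 2-fold. That was 14.2% higher and 13.2% lower, where 12.8% of all tested genes were higher and 10.1% lower. The share called in either direction was 27.4% of the lncRNAs, 22.8% of all tested genes, 22.4% of protein-coding genes and 36.1% of the 657 tested autosomal lncRNAs under the 100-count limit. A further 48 passed the adjusted p without reaching 2-fold, so that 72.6% passed it at any fold against 66.8% of all tested genes (33.0% higher and 33.8% lower), and 29 did not pass it. The median log2 fold change was 0.09 over the lncRNAs and -0.01 over all tested genes. The 3 libraries of each group did not overlap for 85 of the 106 (80.2%), against 70.5% of all tested genes. Among the 79 that reached 100 counts in both groups, 9 were higher and 7 lower.

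**Figure D1:**
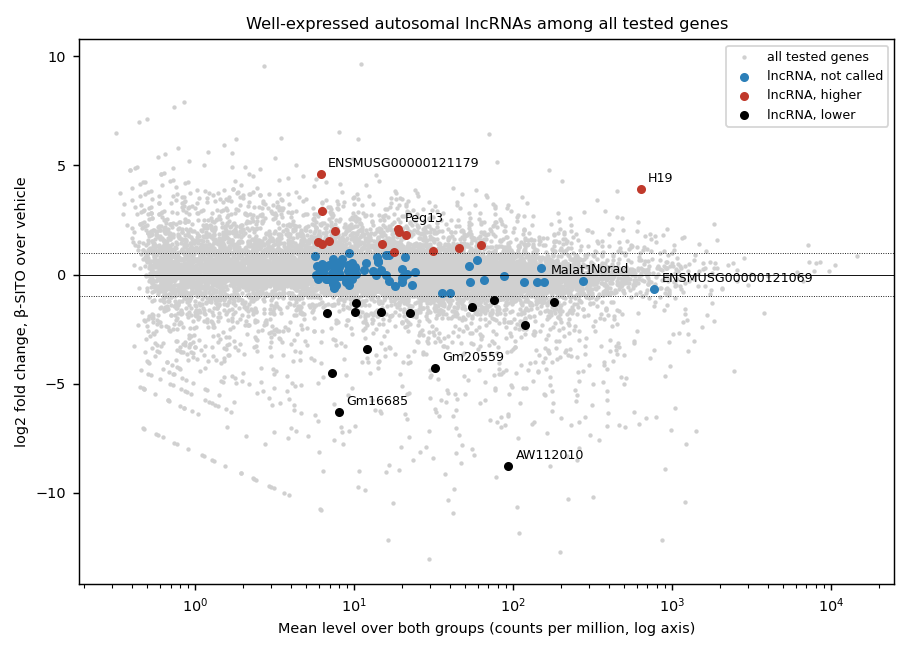
Log2 fold change of β-SITO over vehicle against the mean level over both groups in CPM (log axis). Grey points are all 14799 tested genes, coloured points the 106 lncRNAs by call, and dotted lines mark 2-fold. AW112010 lies lowest among the lncRNAs at -8.75 and ENSMUSG00000121179 highest at 4.60, and H19 is the only called increase among the 10 most abundant.

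The largest decrease was in AW112010, a lncRNA gene on the minus strand of chr19:11021557-11033245 (GRCm39). It is known as an interferon-inducible transcript of immune cells whose RNA is also translated in macrophages. Its level was 154.9, 204.1 and 200.5 CPM in the vehicle libraries and 0.617, 0.169 and 0.469 CPM with β-SITO. The groups did not overlap, and the β-SITO libraries held 12, 3 and 9 counts. The mean fell from 186.5 ± 27.4 to 0.418 ± 0.228 CPM (SD, n = 3 each), a log2 fold change of -8.75 ± 0.19 (SE, edgeR adjusted p = 2.94e-15). By its mean over both groups it was still among the 10 most abundant of the 106 lncRNAs. It overlapped no other gene in the table.

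The promoter of AW112010 is shown because the gene changed most. The RefSeq window of 300 bases, from 250 before to 50 after the annotated start, was on the minus strand of chr19:11050517-11050816 (GRCm38.p6), with 1 match to the kappa-B consensus in capitals, which is the minus-strand reading of the motif, starting 70 bases before the start.
AW112010: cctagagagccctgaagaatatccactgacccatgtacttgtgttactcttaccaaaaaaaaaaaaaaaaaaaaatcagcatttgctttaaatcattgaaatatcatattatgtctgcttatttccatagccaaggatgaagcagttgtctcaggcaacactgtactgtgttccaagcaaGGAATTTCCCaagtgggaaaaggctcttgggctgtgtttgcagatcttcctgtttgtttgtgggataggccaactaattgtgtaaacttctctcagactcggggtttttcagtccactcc
Windows were found for 56 of the 106 lncRNAs, 9 lower and 8 higher ones among them. The kappa-B consensus, searched on both strands, stood in 8.46% of all 32851 windows and in 6 of the 56 lncRNAs. The interferon-stimulated response element, searched as GAAA, NN and GAAA in a row, stood in 3.44% of all windows and in 1 of the 56 (Rab10os). The AP-1 motif TGANTCA was in 3 of the 56 (7.81% of all windows) and the hypoxia response core NACGTG in 15 (19.6% of all windows). None of the 17 called lncRNAs with a window held the AP-1, hypoxia or interferon letters. These matches describe letters in a window and are not binding sites.

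Decreases were also found at 2 other lncRNAs of the immune and inflammatory list. Gm16685 (chr3:7677765-7755061, plus strand) overlaps the start of Il7 on the opposite strand, with the starts of both genes 1055 bp apart. Gm16685 was at 14.4, 16.4 and 16.6 CPM in vehicle and 0.154, 0.056 and 0.364 CPM with β-SITO. This was a log2 fold change of -6.29 ± 0.25 (edgeR adjusted p = 4.89e-12), on 3, 1 and 7 counts in the treated libraries. Il7, an interleukin gene for lymphocyte growth, fell from 2.61 ± 0.327 to 0.615 ± 0.161 CPM (log2 fold change -2.06). Where both genes overlap, reads of one cannot be told from reads of the other, since the strand setting of the counting is not given in the sources used here. Gm20559 (chr6:3333191-3346128, minus strand) was at 60.8, 61.0 and 63.2 CPM in vehicle and 3.24, 3.04 and 3.23 CPM with β-SITO, and its vehicle libraries were nearly equal. Its log2 fold change was -4.28 ± 0.09 (edgeR adjusted p = 1.95e-15). Of the 6 lncRNAs of this list among the 106, 3 were lower, none was higher and the median log2 fold change was -2.30. These 3 (AW112010, Gm16685 and Gm20559) reached the count limit through the vehicle group only. Gm20559 held 63, 54 and 62 counts in the β-SITO libraries. The 3 of 6 and the median thus carry the choice of genes by count. Among all tested genes, which were not chosen by that limit, 10.1% were lower and 12.8% higher. The 3 of 6 therefore cannot be set directly against these shares. The 3 not called were AI506816 (-0.33), Morrbid (-0.30), known as a regulator of Bcl2l11 in myeloid cells, and Neat1 (-0.07). Bcl2l11, a pro-apoptotic gene 15772 bp from Morrbid, rose from 15.5 ± 1.16 to 33.05 ± 1.70 CPM (1.09). Of the macrophage markers Cd68 (1.602), Csf1r (1.54) and C1qa (1.70) were higher, Itgam was at 0.47, under 2-fold, and Adgre1 (-0.06) and Ptprc (-0.03) did not pass the adjusted p. Their part in these values was not tested.

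The other decreases were of lncRNAs with no role given here. C430002N11Rik was at 15.2, 13.0 and 13.8 CPM in vehicle and 0.668, 0.562 and 0.573 CPM with β-SITO (log2 fold change -4.52 ± 0.17). 9530082P21Rik, which overlaps Flywch1 and Kremen2, was at 22.7, 19.6 and 23.6 CPM in vehicle and 2.26, 1.97 and 1.98 CPM with β-SITO (-3.40 ± 0.13). Gm20186, among the 10 most abundant, was at 197.1, 193.5 and 203.1 CPM in vehicle and 44.4, 37.2 and 37.9 CPM with β-SITO (-2.31 ± 0.07). In none of these did the groups overlap. The remaining named decreases were BC051226 (-1.77), 4933412E12Rik (-1.76), F730043M19Rik (-1.72), AW011738 (-1.70), AU020206 (-1.48), Gm6277 (-1.28), ENSMUSG00000120992 (-1.26) and Gm33228 (-1.15). ENSMUSG00000120992 was an abundant one, at 264.2, 249.4 and 255.5 CPM in vehicle and 109.5, 105.6 and 105.3 CPM with β-SITO. The call of Gm33228 was lost when libraries were scaled by size alone and against a 2-fold null.

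**Figure D2:**
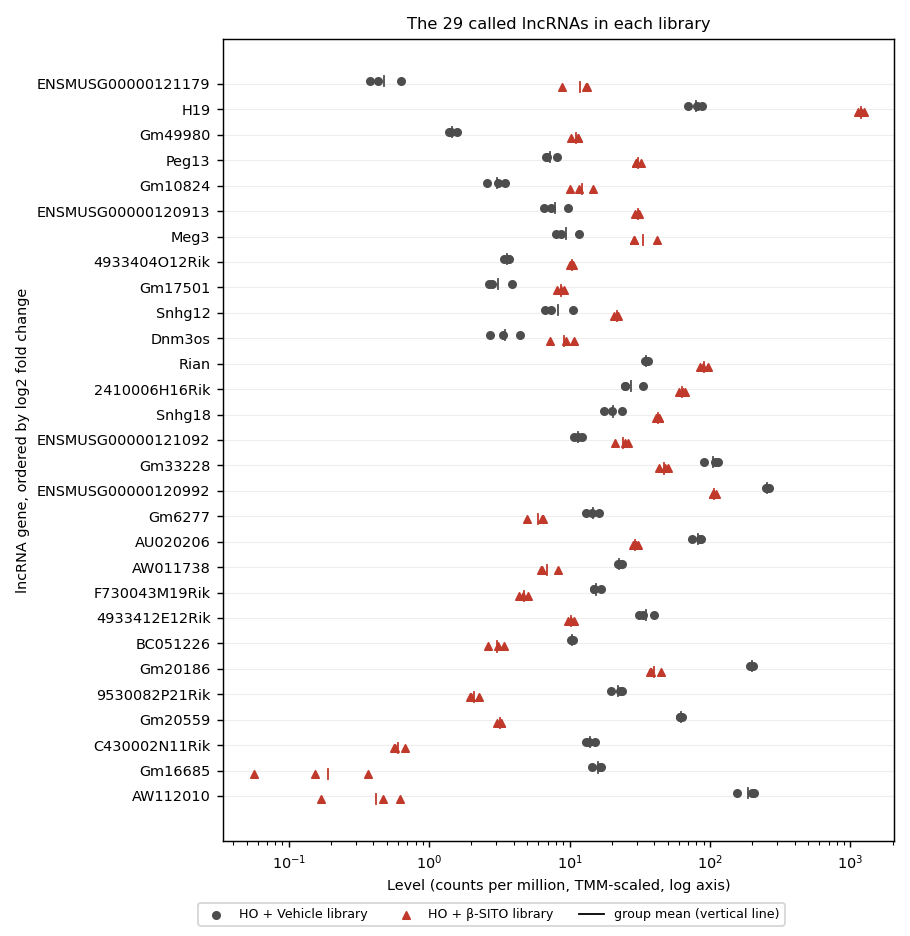
Levels in CPM (log axis) of the 29 called lncRNAs, ordered by log2 fold change, in the 3 vehicle libraries (circles) and the 3 β-SITO libraries (triangles), with a vertical line at each group mean. The 2 groups are apart in every row, and the gap is widest at AW112010 (186.5 against 0.418 CPM).

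H19 showed the largest absolute increase. It is a maternally expressed imprinted lncRNA of fetal tissues, processed to miR-675, at chr7:142129262-142131886 on the minus strand. Its level was 88.3, 80.1 and 69.8 CPM in vehicle and 1246, 1130 and 1197 CPM with β-SITO. The lowest treated library was far above the highest vehicle library. The mean rose from 79.4 ± 9.28 to 1191 ± 58.4 CPM, 15.0-fold (log2 fold change 3.91 ± 0.09, edgeR adjusted p = 3.41e-15). H19 held 1.901% of the counts of the 106 lncRNAs in vehicle and 27.42% with β-SITO.

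The other imprinted lncRNAs among the 106 were Peg13, Meg3 and Rian. The list had 4 members here and each was called an increase (median log2 fold change 1.94), where 12.8% of all tested genes were higher. Peg13, which lies within Trappc9, was at 8.09, 6.90 and 6.82 CPM in vehicle and 29.7, 32.2 and 29.7 CPM with β-SITO (2.07 ± 0.10, edgeR adjusted p = 3.13e-11). Trappc9 itself was at 36.8 ± 0.607 and 37.0 ± 1.13 CPM (log2 fold change 0.01). Meg3, the maternally expressed lncRNA of the Dlk1 cluster, was at 11.6, 8.02 and 8.68 CPM in vehicle and 28.9, 28.8 and 42.0 CPM with β-SITO (1.82 ± 0.16). Library 6 was the high one, and the increase was 1.62 to 2.02 when each library was left out in turn. Rian, 32.1 kb from Meg3 in the same cluster, was at 34.4, 36.2 and 34.7 CPM in vehicle and 89.4, 85.2 and 96.0 CPM with β-SITO (1.36 ± 0.07). Dlk1, the paternally expressed coding gene of the cluster, was at 4.07 ± 0.679 and 4.02 ± 0.523 CPM (log2 fold change -0.02). Among the 4 imprinted lncRNAs only H19 had a level over 100 CPM. All 5 endothelial, 3 of 6 macrophage, 2 of 5 smooth muscle and pericyte and 2 of 8 cardiomyocyte markers were called higher too. Their part in these increases was not tested.

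The promoter of Meg3 is shown since it was the only called lncRNA with a window that held the cyclic AMP response element, TGACGTCA. The stretch was the plus strand of chr12:109540906-109541005 (GRCm38.p6), from 90 before to 10 after the start, with TGACGTCA and the TATA letters in capitals, the latter read on both strands with overlap.
Meg3: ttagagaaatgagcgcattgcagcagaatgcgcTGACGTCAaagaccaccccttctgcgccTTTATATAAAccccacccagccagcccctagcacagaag
TGACGTCA stood in 1.79% of all windows and in 3 of the 56 lncRNAs, the others being B230354K17Rik and Gas5. TATAAA stood in 13.6% of all windows and in 8 of the 56.

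ENSMUSG00000121179 had the largest fold increase among the 106. It lies on the plus strand of chr6:30782687-30785779, antisense within Copg2 and 34.2 kb from Mest, a paternally expressed imprinted gene. Its level was 0.379, 0.627 and 0.434 CPM in vehicle, on 6, 10 and 7 counts, and 8.89, 13.4 and 13.2 CPM with β-SITO. The log2 fold change was 4.60 ± 0.26 (edgeR adjusted p = 3.10e-10). Copg2 was at 54.2 ± 0.843 and 64.7 ± 0.839 CPM (log2 fold change 0.26), and Mest, a gene on the imprinted coding list, rose from 9.94 ± 1.52 to 125 ± 10.6 CPM (3.65 ± 0.10).

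Of 23 imprinted protein-coding genes tested, 9 were higher and 1 was lower, where 12.8% of all tested genes were higher and 10.1% lower. Their median log2 fold change was 0.50, against -0.01 over all tested genes. The increases were led by Igf2, the fetal growth factor gene 72.6 kb from H19, which was at 0.379, 0.940 and 0.248 CPM in vehicle and 10.8, 11.0 and 11.1 CPM with β-SITO (4.38 ± 0.25). Mest followed at 3.65. Zim1 was at 0.291 ± 0.127 and 3.53 ± 0.350 CPM, and Peg3 rose from 15.8 ± 1.91 to 138.4 ± 6.11 CPM (3.13). Peg10 (2.27), Cdkn1c (2.63), a cyclin-dependent kinase inhibitor, and Plagl1 (1.43), a zinc finger regulator of imprinted growth genes, were also higher. The gene that fell was Impact, from 125.8 ± 10.5 to 58.5 ± 3.64 CPM (-1.10), and its call was lost with libraries scaled by upper quartile or by size alone, where 10 of the list were higher and 0 lower. In the main scaling Nnat (-0.98) and Grb10 (0.95) were among the 13 genes not called.

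**Figure D3:**
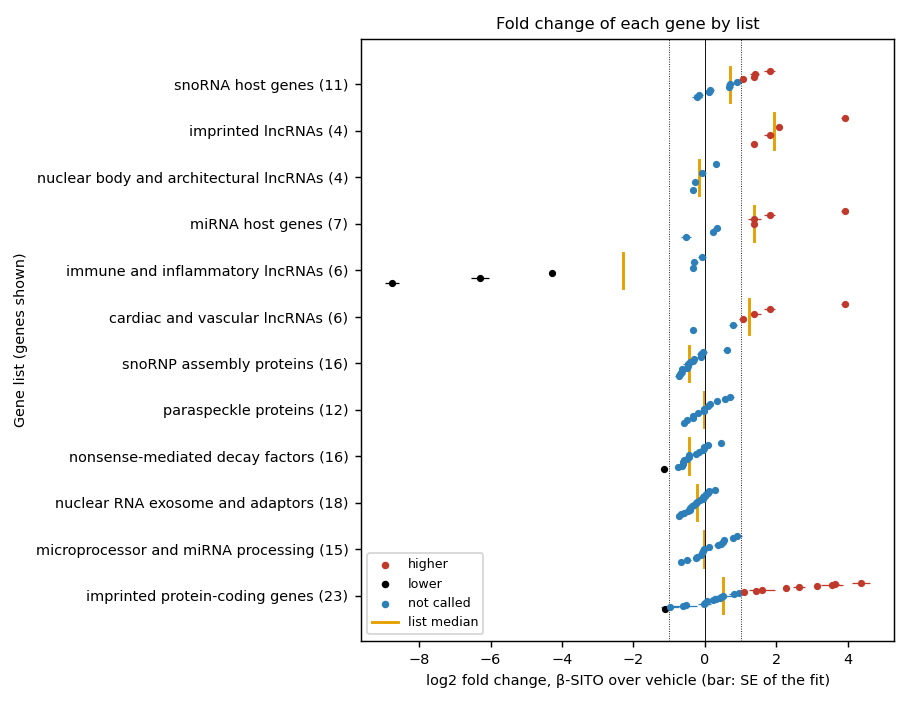
Log2 fold change of β-SITO over vehicle for each gene of 12 lists, with bars for the SE of the fit and a line at each list's median. The imprinted lncRNAs all lie over 1 and the immune and inflammatory lncRNAs at or under -0.07, and the 16 snoRNP assembly genes lie between -0.73 and 0.61.

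Of the 13 lncRNAs that hold an annotated snoRNA gene, 4 were higher, 0 were lower and 9 were not called. Over all tested genes 12.8% were higher and 10.1% lower. The median log2 fold change of the 13 was 0.70. Of the 93 that hold none, 11 were higher and 14 lower, with a median of 0.04. Of the 13, 10 had a positive fold change. Snhg12, which holds 5 snoRNA genes, was at 7.39, 10.6 and 6.69 CPM in vehicle and 21.9, 22.2 and 20.8 CPM with β-SITO (1.39 ± 0.13, edgeR adjusted p = 1.60e-07). 2410006H16Rik was at 24.6, 33.2 and 24.9 CPM in vehicle and 63.8, 66.3 and 59.9 CPM with β-SITO (1.20 ± 0.10). Snhg18 was at 19.9, 23.6 and 17.5 CPM in vehicle and 41.2, 42.9 and 42.9 CPM with β-SITO (1.06 ± 0.09). The vehicle libraries varied more than the treated ones in these 3 genes, and library 2 was the highest of the vehicle group in each. Snhg18 lost its call without vehicle library 3 (0.99) and against a 2-fold null. The remaining called host was Rian, given above, with 13 snoRNA genes.

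Snhg8 (0.90), 1110038B12Rik (0.89), Snhg5 (0.70) and Gas5 (0.68) passed the adjusted p without 2-fold. 1110038B12Rik, with 2 snoRNA genes, was at 11.2 ± 1.499 and 20.7 ± 1.12 CPM, and it was called with libraries scaled by upper quartile or by size alone. Gas5, with 10 snoRNA genes, was at 40.1, 49.8 and 45.8 CPM in vehicle and 83.0, 68.5 and 65.9 CPM with β-SITO. Snhg8 was called when library 5 or library 2 was left out and with libraries scaled by upper quartile or by size alone. Snhg1 (0.15), Zfas1 (0.12), Snhg6 (-0.18) and Snhg17 (-0.21) did not pass, and their libraries overlapped between the groups. AI506816, at -0.33 ± 0.06 (edgeR adjusted p = 0.000281), was the host that passed with a negative value. Zfas1 overlaps Znfx1, an interferon-regulated helicase gene, which fell from 726.3 ± 32.3 to 92.0 ± 2.93 CPM, and reads of overlapping genes may be split between them.

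Start sites of snoRNA hosts are shown because such genes are known for transcripts that begin with a pyrimidine tract, like ribosomal protein mRNAs. Each stretch runs from 20 bases before to 30 bases after an annotated start (GRCm38.p6), and capitals mark a C followed by at least 4 pyrimidines within 5 bases of that start. Snhg1 and Snhg5 are given as hosts without it.
Snhg12: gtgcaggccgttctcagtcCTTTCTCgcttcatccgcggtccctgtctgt
2410006H16Rik: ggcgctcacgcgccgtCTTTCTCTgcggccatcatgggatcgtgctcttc
Snhg18: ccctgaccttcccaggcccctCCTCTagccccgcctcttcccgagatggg
Snhg8: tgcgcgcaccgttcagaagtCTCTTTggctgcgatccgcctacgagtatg
1110038B12Rik: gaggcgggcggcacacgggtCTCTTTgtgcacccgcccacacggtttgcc
Gas5: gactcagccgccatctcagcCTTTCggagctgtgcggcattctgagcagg
AI506816: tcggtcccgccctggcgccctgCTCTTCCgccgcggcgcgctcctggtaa
Snhg1: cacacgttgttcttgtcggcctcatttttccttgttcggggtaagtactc
Snhg5: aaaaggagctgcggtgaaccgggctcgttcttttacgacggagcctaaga
The stretches are at chr4:132308658-132308707 (plus strand) for Snhg12, chr11:62602857-62602906 (plus) for 2410006H16Rik, chr15:32244633-32244682 (minus) for Snhg18, chr3:123508307-123508356 (minus) for Snhg8, chr17:34952439-34952488 (minus) for 1110038B12Rik, chr1:161035146-161035195 (plus) for Gas5, chr5:23712638-23712687 (minus) for AI506816, chr19:8723467-8723516 (plus) for Snhg1 and chr9:88522868-88522917 (minus) for Snhg5. The tract within 5 bases stood in 18.3% of all windows and in 7 of the 12 snoRNA hosts with a window. Exactly at the annotated start it stood in 2.51% of all windows and in 3 of the 12 (Gas5, Snhg8 and 1110038B12Rik). The hosts with a tract had log2 fold changes of -0.33 to 1.39, and both called and uncalled hosts were among them. Hosts with a window and no tract were Rian (1.36), Snhg5 (0.70), Snhg1 (0.15), Zfas1 (0.12) and Snhg17 (-0.21). A link between the tract and the fold change was not tested.

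The genes that build and use these RNAs were read from fixed lists. Of 16 snoRNP assembly genes 0 were called, 11 passed the adjusted p with a negative fold change under 2-fold and 1 (Nop10, 0.61) with a positive one, and the median log2 fold change was -0.44. The lowest were Nhp2 (-0.73), from 37.4 ± 4.97 to 22.5 ± 1.37 CPM, and Nufip1 (-0.68). Nop56, a core box C/D protein gene, fell from 71.2 ± 1.23 to 44.9 ± 0.211 CPM (-0.67). With libraries scaled by size alone 8 of the 16 passed with a negative value and the median was -0.29. Of 16 nonsense-mediated decay genes, whose products can degrade spliced host transcripts, 11 passed the adjusted p at any fold with a negative value and 1, Smg6 (0.45), with a positive one, and the median log2 fold change was -0.45. Smg9 fell from 17.6 ± 0.427 to 10.4 ± 1.06 CPM (-0.75).

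Of 7 lncRNAs that hold a microRNA gene, 4 were higher and 1 was lower (Gm6277), where 12.8% of all tested genes were higher and 10.1% lower. The hosts that rose were H19, Meg3 and Rian, already counted above as imprinted, and Dnm3os. Dnm3os, an antisense transcript of Dnm3 that carries miR-199a and miR-214, was at 4.42, 2.70 and 3.35 CPM in vehicle and 7.25, 9.44 and 10.7 CPM with β-SITO (1.39 ± 0.19, edgeR adjusted p = 1.00e-05), with the treated libraries spread wider than in most others. Dnm3 was at 3.40 ± 0.372 and 3.37 ± 0.269 CPM. Mir22hg rose by 0.23, under 2-fold, and Mir100hg was at -0.54, both past the adjusted p. RefSeq's mature microRNAs of these hosts are shown with the seed, bases 2 to 8, in capitals, since the hosts are their precursors.
miR-675-5p in H19: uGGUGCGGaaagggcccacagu
miR-675-3p in H19: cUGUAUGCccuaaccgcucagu
miR-770-5p in Meg3: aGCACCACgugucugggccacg
miR-370-3p in Rian: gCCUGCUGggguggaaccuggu
miR-199a-5p in Dnm3os: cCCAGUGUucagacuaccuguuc
miR-199a-3p in Dnm3os: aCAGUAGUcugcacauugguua
miR-214-3p in Dnm3os: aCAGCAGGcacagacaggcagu
miR-22-3p in Mir22hg: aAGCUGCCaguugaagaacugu
miR-100-5p in Mir100hg: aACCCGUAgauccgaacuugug
miR-125b-5p in Mir100hg: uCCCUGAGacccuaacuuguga
No seed was shared between these mature microRNAs. Levels of mature microRNAs were not measured, since the count table is of longer RNA. Of 15 genes for microRNA processing 0 were called. Ago4 (0.91) and Ago1 (0.79) were highest, and Xpo5 (-0.67) and Tarbp2 (-0.50) lowest.

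The cardiac and vascular list held 6 of the 106 lncRNAs, and 4 were higher (H19, Meg3, Dnm3os and Snhg18). These 4 were already counted in the classes above, and 12.8% of all tested genes were higher. Hand2os1 overlaps the cardiac transcription factor gene Hand2 on the opposite strand, and reads of the overlap may be split between them. Hand2os1 was at 10.7, 11.5 and 8.74 CPM in vehicle and 15.3, 18.7 and 19.3 CPM with β-SITO (0.78 ± 0.12), under 2-fold. Hand2 was at 47.9 ± 2.24 and 45.5 ± 1.12 CPM (-0.07). The remaining one was Malat1. All 5 endothelial, 2 of 8 cardiomyocyte, 2 of 5 smooth muscle and pericyte and 0 of 6 fibroblast markers were called higher. Their part in these values was not tested.

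Further increases were found at lncRNAs outside the lists. Gm49980 was at 1.39, 1.57 and 1.43 CPM in vehicle and 11.6, 10.2 and 11.6 CPM with β-SITO (2.92 ± 0.16, edgeR adjusted p = 1.77e-10), while its neighbour Pik3c3 was at 38.1 ± 1.14 and 38.5 ± 2.04 CPM. Gm10824, antisense to Tcf21, was at 2.59, 3.07 and 3.47 CPM in vehicle and 14.7, 10.1 and 11.7 CPM with β-SITO (1.999 ± 0.17). Tcf21, a transcription factor gene of epicardial and fibroblast cells, was at 173.4 ± 17.9 and 281.1 ± 16.3 CPM (0.70), so the fold change of the lncRNA was higher. ENSMUSG00000120913 was at 6.57, 9.78 and 7.31 CPM in vehicle and 31.4, 30.8 and 29.4 CPM with β-SITO (1.95 ± 0.12). 4933404O12Rik (1.52), Gm17501 (1.48) and ENSMUSG00000121092 (1.05) completed the named increases, and the last was not called against a 2-fold null or without vehicle library 2.

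The most abundant lncRNA was ENSMUSG00000121069, at 952.0, 919.1 and 970.9 CPM in vehicle and 621.8, 600.3 and 583.2 CPM with β-SITO, a log2 fold change of -0.65 ± 0.06 that was under 2-fold. Its groups did not overlap. Cyp2d22, its nearest tested coding gene on chromosome 15, rose from 6.81 ± 0.473 to 42.6 ± 1.85 CPM (2.65). Norad, a noncoding RNA that binds Pumilio proteins, was at 310.5, 289.3 and 307.8 CPM in vehicle and 240.3, 259.5 and 247.0 CPM with β-SITO (-0.28). With libraries scaled by upper quartile Norad was at -0.14 (edgeR adjusted p = 0.0424). By size alone it was at -0.13 and did not pass (edgeR adjusted p = 0.0509). Malat1, a nuclear speckle RNA, was at 198.3, 155.8 and 167.5 CPM in vehicle and 133.0, 128.8 and 153.2 CPM with β-SITO (-0.33). This was -0.20 without vehicle library 1, the highest of its group, and did not pass the adjusted p with libraries scaled by upper quartile (-0.19, edgeR adjusted p = 0.0648) or by size alone (-0.18, edgeR adjusted p = 0.0733). Oip5os1 was at 134.1 ± 1.58 and 166.6 ± 8.25 CPM (0.31), and Brip1os at 132.4 ± 4.93 and 103 ± 5.91 CPM (-0.36). Neat1, the scaffold of paraspeckles, was at 91.5, 95.9 and 81.0 CPM in vehicle and 74.7, 75.8 and 104.2 CPM with β-SITO (-0.07 ± 0.11, edgeR adjusted p = 0.555), with library 6 above and the other two treated libraries below every vehicle library. Of 12 paraspeckle protein genes 0 were called, with Hnrnph3 (0.72) and Pspc1 (0.57) highest and Tardbp (-0.57) lowest. Of 18 nuclear RNA exosome genes 0 were called and 9 passed with a negative value, with Exosc9 (-0.71) and Exosc1 (-0.67) lowest and Zcchc8 (0.29) and Zfc3h1 (0.10) highest. Medians of the paraspeckle and microRNA processing lists changed sign with libraries scaled by size alone (-0.03 to 0.12 and -0.04 to 0.11).

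The 106 lncRNAs held 0.394% to 0.3993% of all counts in vehicle and 0.4474% to 0.4638% with β-SITO, so every treated library was higher. Without H19 and ENSMUSG00000121069 the means were 0.2989% and 0.268%, in the opposite direction. Levels were spread widely, since 15 of the 106 had a mean of 1000 counts or more and 55 had under 200. Per kb of exon, for the 79 matched to an exon length, mean levels over both groups were highest for H19 (258.2 CPM per kb), AW112010 (116.3), Gm20186 (113.2), 2410006H16Rik (98.4) and Norad (56.1).

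**Figure D4:**
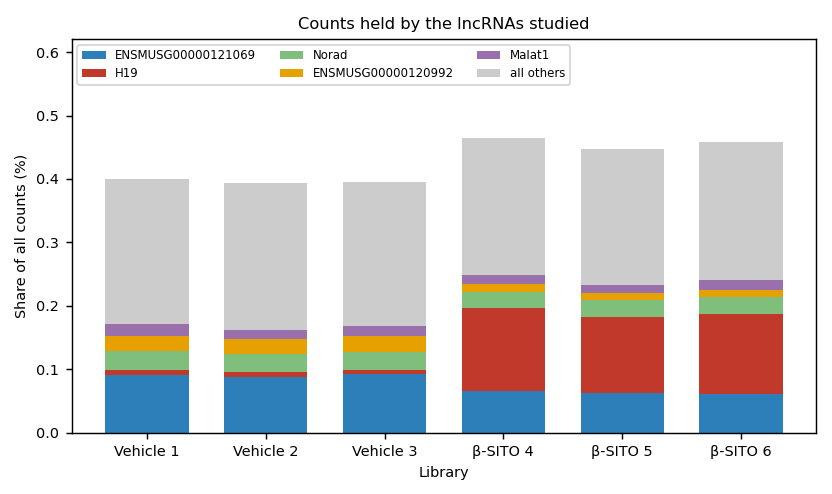
Share of all counts (%, bars from 0) held by the 106 lncRNAs in each library, with the 5 of highest mean count in colour and all others in grey. The total is 0.394% to 0.3993% in vehicle and 0.4474% to 0.4638% with β-SITO, and H19 takes 1.901% of it in vehicle and 27.42% with β-SITO.

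Each lncRNA was set beside its nearest tested protein-coding gene in the table, 103 distinct genes in all. Both genes of a pair were called in the same direction for 9 of the 29 called lncRNAs, in opposite directions for 2, and for 18 only the lncRNA was called. The 9 were 31.0% of the called lncRNAs, where the figure for protein-coding genes and their nearest protein-coding neighbour was 20.9%. Fold changes had the same sign in 62 pairs (58.5%, against 52.9% for coding pairs). Over the 106 pairs Pearson's r was 0.345, and over coding pairs 0.274, as descriptions of genes that share libraries.

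Of the pairs called together 6 fell, and the coding genes of the first 2 below are known as interferon-induced. AW011738, at 23.4, 22.3 and 22.1 CPM in vehicle and 8.22, 6.35 and 6.25 CPM with β-SITO, starts 2474 bp from Isg15, a ubiquitin-like modifier gene, which fell from 1009 ± 98.1 to 8.11 ± 1.53 CPM (-6.96 ± 0.12). Gm20559 lies 26.1 kb from Samd9l, an antiviral factor gene, which fell from 288.7 ± 25.7 to 17.8 ± 2.01 CPM (-4.02). BC051226 starts 47 bp from Daxx on the opposite strand, and Daxx fell from 238.1 ± 6.54 to 38.01 ± 1.21 CPM (-2.65) as BC051226 went from 10.4 ± 0.138 to 3.05 ± 0.398 CPM. F730043M19Rik and Atxn7l1, 81 bp apart, fell by nearly the same amount (-1.72 and -1.61). Gm16685 and Il7 were given above, and AW112010 was paired with Ccdc86 (-1.11) at 94927 bp.

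The pairs that rose together were Gm17501 with Ccn1, Snhg18 with Sema5a and ENSMUSG00000121092 with Nrp1. Gm17501, at 3.11 ± 0.675 and 8.68 ± 0.502 CPM, starts 331 bp from Ccn1, a matricellular protein gene, which went from 79.8 ± 1.91 to 301.6 ± 3.41 CPM (1.92). Snhg18 starts 108 bp from Sema5a, a semaphorin gene, which went from 19.03 ± 1.66 to 60.5 ± 3.03 CPM (1.67). Nrp1, a co-receptor gene for semaphorins and vascular growth factors, went from 61.95 ± 3.41 to 126.7 ± 4.11 CPM (1.03), close to the 1.05 of ENSMUSG00000121092. The pairs in opposite directions were Gm6277 with Cables1 (-1.28 and 1.40), which overlap on opposite strands, and Gm33228 with Celf4 (-1.15 and 2.26), which lie 253400 bp apart.

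By position, 18 lncRNAs had a start within 1000 bp of the start of a divergent neighbour, and 4 of these pairs were called together. Of 28 that overlapped the neighbour on the opposite strand 1 pair was called together, of 54 that lay apart 4, and of 6 that overlapped on the same strand 0. Over the 106 pairs 8.49% were called together and over coding pairs 4.67%. Coding pairs were not split by position, so no trait of a position is read from these counts. Fold changes had the same sign in 11 of the 18 divergent pairs. Pairs that fell together were not always called together, where the coding gene passed the adjusted p without reaching 2-fold. Gm20186 starts 46 bp from Lsm8, an RNA-binding protein gene, and Lsm8 went from 22.1 ± 1.35 to 15.9 ± 1.07 CPM (-0.48) against -2.31 for the lncRNA. ENSMUSG00000120992 starts 570 bp from Vars, a valine tRNA synthetase gene (-0.47 against -1.26). Of the 50 lncRNAs that overlapped no other gene, with small RNA genes left out of that count, 10 were higher and 8 lower. Among all tested genes 12.8% were higher and 10.1% lower. The part of reads shared between genes in the calls was not tested.

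**Figure D5:**
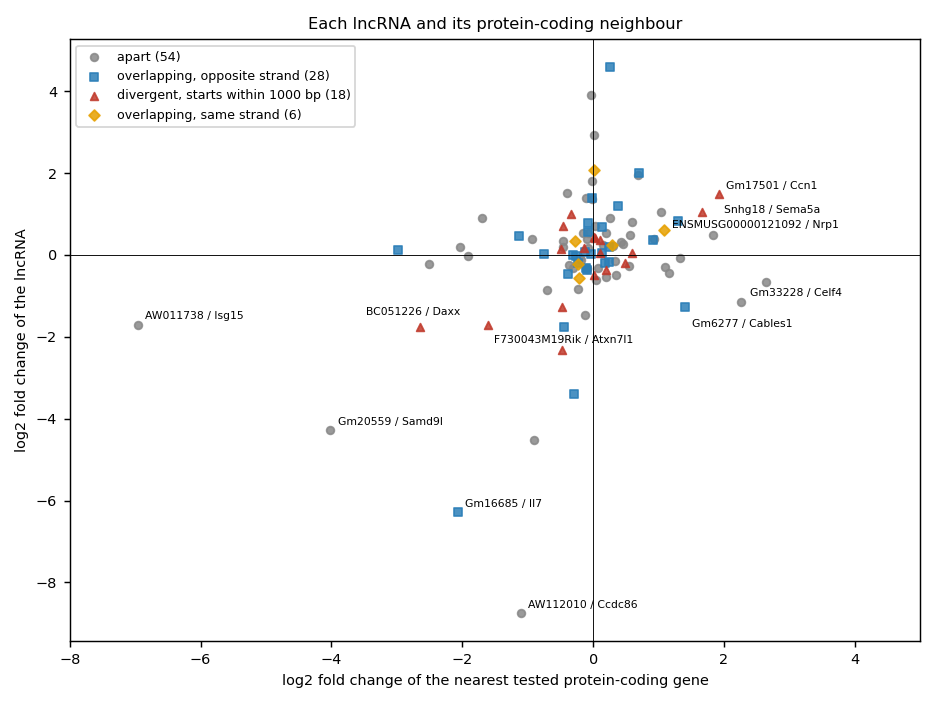
Log2 fold change of each of the 106 lncRNAs (vertical axis) against that of its nearest tested protein-coding gene (horizontal axis), with markers by position. The 11 labelled pairs are those with both genes called, 9 in the same direction and 2 in opposite directions. H19 and Meg3 lie near 0 on the horizontal axis.

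At the count limit, the members just inside were Gm37305 (mean 100 counts; log2 fold change -0.03) and ENSMUSG00000120984 (mean 101.17; 0.84), and the lncRNAs just outside were Gata6os (99.667) and Pvt1 (99.333). ENSMUSG00000120984 overlaps Cavin1, a caveolar coat protein gene, which rose from 209.1 ± 5.91 to 515.1 ± 17.8 CPM (1.30).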

How the data were processed

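RNA was measured in 6 libraries of NMCMs by RNA-seq. The paper names an ABclonal kit and the labels an Illumina TruSeq kit. Per the submitters' processing notes, FastQC, HISAT2, featureCounts and GRCm39 were used. The authors deposited raw gene counts with no normalization, and the strand and multimapping settings are not given in the sources used here. From these counts, in R 4.3.3 with edgeR 4.0.16, genes were filtered (filterByExpr), scaled by TMM and tested by quasi-likelihood, with group as the only term and Benjamini-Hochberg adjustment. A call needed an adjusted p under 0.05 and over 2-fold. DESeq2 1.42.0, limma 3.58.1 voom, other scalings, filters and left-out libraries were alternatives. At this depth every lncRNA studied passed the filter. On simulated counts of 14799 genes, 193 of 200 genes changed 4-fold were recovered with 2 false calls. Only these 200 genes were changed, in equal numbers up and down. The simulation thus gives no error rate, and no check of the scaling, for data in which 22.8% of tested genes are called. An exact permutation of 3 against 3 libraries cannot go below 0.1.

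The lncRNAs and all lists were chosen with earlier results of these data known. Named were the 10 most abundant lncRNAs, the 10 largest called increases and decreases without overlap between groups, list members, those at the count limit, nearest coding neighbours, and the extremes of each machinery list, some of which are not reported here. Other called lncRNAs and further list genes were added after their values were seen. Promoter and microRNA sequences came from RefSeq (GRCm38.p6), and exon lengths from GENCODE vM21 by gene identifier. Where a position is on GRCm38.p6 it is said so, and others are GRCm39 as deposited.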

Additional observations from a re-analysis of the deposited data

How the results depend on the processing

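No paired analysis was possible because the libraries are numbered 1 to 3 in one group and 4 to 6 in the other. Without the fold limit 43 lncRNAs were higher and 34 lower, and 32 of 106 pairs with a neighbour moved the same way. At any fold 66.8% of all tested genes passed the adjusted p. No such figure was made for coding pairs, so the 32 are not read as a trait of lncRNAs. With a mean of at least 50 counts 24 of 200 lncRNAs were higher and 32 lower, and with at least 200 counts 9 of 51 were higher and 8 lower. Among the 50 lncRNAs that overlap no other gene 10 were higher and 8 lower. These sets differ in size from the 106, so their counts cannot be set directly against those of the 106. The cause of any difference in share was not tested. The share of counts held by the lncRNAs changed sign without the 2 most abundant, to -0.031 percentage points. Leaving out each library in turn gave 15 to 17 higher, 14 to 14 lower, 8 to 9 pairs and a share difference of 0.0565 to 0.0647 percentage points. Scaling by upper quartile or by library size alone moved the median of all tested genes to 0.136 and 0.141, and the called lncRNAs then numbered 32 and 31 in place of 29, with no shared call changing direction. Neat1 changed sign with upper quartile (0.068) and library size (0.073) and ranged from -0.239 to 0.0299 when a library was left out. Gm37305 changed sign with upper quartile (0.109) and library size (0.114) and ranged from -0.108 to 0.0506 when a library was left out. Neither was called in any of these, and the cause was not tested. DESeq2 and limma-voom called the same 29 lncRNAs. The depth of 100 counts leaves smaller lncRNAs out.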

Other observations

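Some lncRNAs of the same lists lay under the 100-count limit or on the X chromosome. Of the immune and inflammatory list, Gm12216 fell from 6.16 ± 0.195 to 0.284 ± 0.112 CPM (n = 3 libraries each, log2 fold change -4.41 ± 0.26), A530040E14Rik from 2.004 ± 0.231 to 0.178 ± 0.0402 CPM (-3.45), Ttc39aos1 from 6.15 ± 0.686 to 1.16 ± 0.314 CPM (-2.39) and Gm26902 from 7.80 ± 0.0817 to 1.88 ± 0.0924 CPM (-2.05). U90926 was at 0.947, 1.88 and 1.61 CPM in vehicle and at 0 counts in every β-SITO library, which allows up to 0.0531 CPM over the 3 together. Mir155hg, the precursor of miR-155, was at 2.40, 0.690 and 2.60 CPM in vehicle and 0.0514, 0 and 0 CPM with β-SITO. F630028O10Rik, an X-linked lncRNA of this list, went the other way, from 0.105 ± 0.0369 to 3.32 ± 0.601 CPM (4.90 ± 0.38), and so did Mir142hg, from 0.626 ± 0.00596 to 1.42 ± 0.174 CPM (1.17).

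Of the imprinted list, Mirg (1.75), Airn (1.03) and Snhg14 (1.17) were higher and Kcnq1ot1 was not called, at 2.06 ± 0.198 and 1.90 ± 0.738 CPM (-0.12). Mirg lies in the cluster of Meg3 and Rian, and Airn runs antisense to Igf2r, which rose from 292.0 ± 32.9 to 619.9 ± 11.4 CPM (1.09). Firre, an X-linked nuclear lncRNA, rose from 6.03 ± 0.934 to 12.8 ± 1.30 CPM (1.08), and Epb41l4aos, a snoRNA host, from 1.52 ± 0.266 to 3.68 ± 0.718 CPM (1.27). Among cardiac lncRNAs Carmn rose from 0.272 ± 0.220 to 1.46 ± 0.561 CPM (2.39), while Mhrt was at 1.25 ± 0.119 and 1.49 ± 0.501 CPM (0.25) and Bvht at 1.94 ± 0.763 and 3.42 ± 0.757 CPM (0.82), neither called. These values rest on few counts, between 11.8 and 168.3 a library on average.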
